A study of Mus musculus with 6 samples.

Results

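H3K9me3 of endothelial progenitor cells (EPCs) from intact female mice (F-EPCs) was compared with that of male mice (M-EPCs) over the part of the genome where all 4 libraries held reads. This part was chromosomes 1 and 10 to 15 and chromosome 16 up to position 30557137, where the reads of F-EPC replicate 1 ended. It held 26999 of the 58476 regions in the deposited table of the 2 groups. Of these, 8139 were tested, because at least 2 of the 4 libraries had a normalized value of 10 or more, and the other 18860 were too weakly covered.

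The cells were lineage-depleted bone marrow cells of 8-week-old C57BL/6J mice, sorted with magnetic beads for Sca-1 and CD31 and cultured in EGM-2 endothelial growth medium. Both groups were untreated and differed in the sex of the donors. OVX-EPCs, from ovariectomized females and prepared in the same way, are given beside them as values only. Each group had 2 libraries. The protocol set vials aside in duplicates, and nothing states that the 2 libraries of a group came from separate mice or cultures, so the p-values measure the spread between these libraries, which may be technical. Sex, donor pool and preparation cannot be told apart in this design. No region of chromosome X or Y lay in the part compared, so sex labels could not be checked here, nor can a histone mark check the cell type. Within the part compared, M-EPC replicates held 200296 and 235301 reads and F-EPC replicates 288353 and 252356, a median of 5 to 8 reads per region and library, so single regions were measured with low precision. Fewer cells carrying the mark and less of it per cell cannot be told apart in such libraries.

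H3K9me3 is histone H3 trimethylated on lysine 9. The mark is laid down by SET-domain methyltransferases and bound by HP1 proteins, and it is best known in heterochromatin, where it keeps repeats, zinc finger gene clusters and genes of other lineages silent. CUT&Tag reads it by tethering the Tn5 transposase to antibody-bound chromatin and sequencing the tagged fragments. Tn5 also cuts open chromatin, so reads at active promoters need not reflect the mark.

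The regions were mostly 400 bp long and differed widely in sequence. The middle 200 bases of 6 regions that differed between the groups are shown on the plus strand of GRCm38.p6 (the coordinates of mm10, from RefSeq), with every CpG dinucleotide in capitals. The first 4 were lower in F-EPCs and run from CpG-poor to CpG-rich. The last pair was higher in F-EPCs and CpG-poor.
Gm38231, chr10:37130955-37131154: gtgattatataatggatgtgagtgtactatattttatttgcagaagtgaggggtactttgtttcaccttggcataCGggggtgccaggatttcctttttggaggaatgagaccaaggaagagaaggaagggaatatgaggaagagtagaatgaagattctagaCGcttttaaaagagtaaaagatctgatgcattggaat
Ccl12, chr11:82101563-82101762: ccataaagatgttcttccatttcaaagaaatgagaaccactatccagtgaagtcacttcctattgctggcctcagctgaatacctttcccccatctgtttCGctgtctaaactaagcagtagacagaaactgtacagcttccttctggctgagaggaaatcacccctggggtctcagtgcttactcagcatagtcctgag
Unc5a, chr13:55003417-55003616: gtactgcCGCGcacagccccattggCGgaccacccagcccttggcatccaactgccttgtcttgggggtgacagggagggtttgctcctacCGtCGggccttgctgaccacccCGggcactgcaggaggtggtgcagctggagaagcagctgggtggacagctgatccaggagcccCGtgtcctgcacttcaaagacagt
Socs3, chr11:117969140-117969339: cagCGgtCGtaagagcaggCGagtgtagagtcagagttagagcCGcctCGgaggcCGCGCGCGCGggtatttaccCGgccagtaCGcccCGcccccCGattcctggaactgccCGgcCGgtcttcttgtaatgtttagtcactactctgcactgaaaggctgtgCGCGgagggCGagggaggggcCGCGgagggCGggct
Baalc, chr15:38908429-38908628: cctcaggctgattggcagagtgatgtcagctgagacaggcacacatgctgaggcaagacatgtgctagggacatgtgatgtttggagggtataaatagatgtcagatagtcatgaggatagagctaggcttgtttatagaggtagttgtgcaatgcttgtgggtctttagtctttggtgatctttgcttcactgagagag
Lgmn, chr12:102426415-102426614: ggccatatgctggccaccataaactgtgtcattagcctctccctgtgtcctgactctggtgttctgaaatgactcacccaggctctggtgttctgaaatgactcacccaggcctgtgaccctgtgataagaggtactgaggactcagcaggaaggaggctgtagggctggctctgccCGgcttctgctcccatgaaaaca
The windows of Gm38231 and Ccl12 held 2 and 1 CpGs, that of Unc5a 7 and that of Socs3 22. The Baalc window held 0 CpGs and the Lgmn window 1. Over whole regions, 29.7% of all tested regions had 10 or more CpGs, compared with 31 of the 132 regions lower in F-EPCs (23.5%). Each of the 14 regions higher in F-EPCs had 9 or fewer.

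Of the 8139 regions tested, 146 differed between F-EPCs and M-EPCs (limma, Benjamini-Hochberg adjusted p under 0.05), which is 1.79% of them. In F-EPCs 132 were lower (1.62%) and 14 higher (0.172%). The values of the groups did not overlap in 53.8% of all tested regions. Of the lower regions 54 lay in distal intergenic sequence, 30 in introns and 29 in core promoters. The count moved with the scaling and with single libraries. The median log2 fold change of all tested regions was -0.19 with the authors' factors. With TMM factors from the tested regions, which bring this median to 0.00, 24 regions differed, 6 higher and 18 lower in F-EPCs, all of them among the 146. Without M-EPC replicate 1 the count was 95, 48 higher and 47 lower, and 49 of these were among the 146. Without M-EPC replicate 2 it was 647, 192 higher and 455 lower. edgeR on the recovered reads called 106 regions, 41 higher and 65 lower, and 72 of these were among the 146. DESeq2 called 4, all lower and all among the 146. Of the 35 called regions that the rule for named regions gave, 21 passed the threshold without M-EPC replicate 1, 32 without M-EPC replicate 2, 19 without F-EPC replicate 1 and 14 without F-EPC replicate 2, with the same direction throughout. Of the same 35 regions, 31 passed with edgeR, 18 with TMM factors from the tested regions and 1 with DESeq2. The groups did not overlap in any of these 35 regions, so leaving out 1 library could not reverse a direction. Changes below are on the authors' scale and are to be read against the median of -0.19. With that median most tested regions were negative, so counts of negative fold changes below are to be read beside this.

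**Figure D1:**
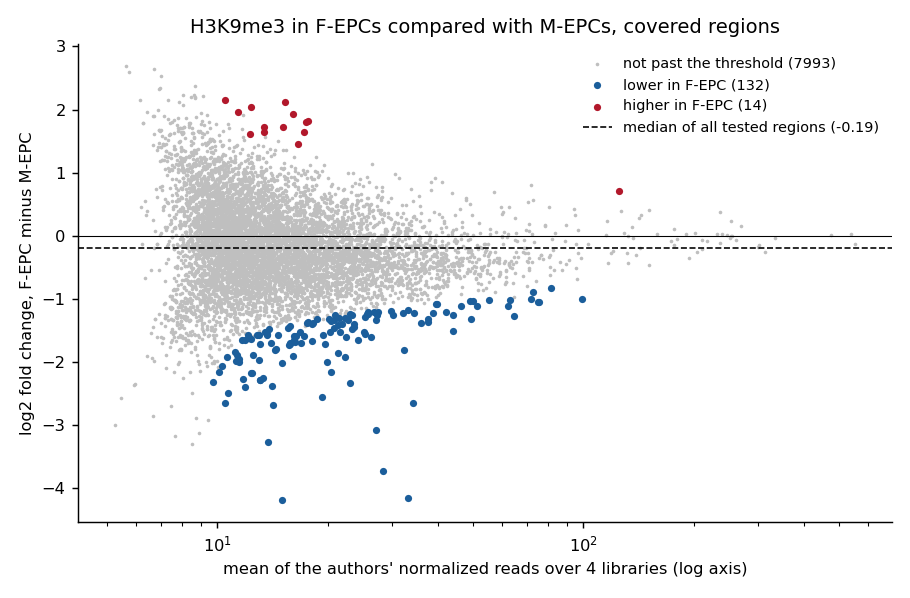
Log2 fold change of F-EPC minus M-EPC (vertical) against the mean normalized reads of the 4 libraries (horizontal, log axis) for the 8139 tested regions. Blue points are the 132 regions lower in F-EPCs, red points the 14 higher ones, and the dashed line is the median of -0.19, below which most of the cloud of stronger regions lies.

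The filter itself fixes part of the pattern. Of the tested regions, 983 passed through the 2 M-EPC libraries alone and 653 through the 2 F-EPC libraries alone, and such regions had to be higher in that group. They held 59 of the 132 lower and 8 of the 14 higher regions. This includes every region described below with both values of 1 group under 10 and both of the other at 10 or more, whose separation and direction the filter fixed. Another 5251 regions passed in 3 or 4 libraries and held the other 73 lower and 6 higher regions. At the edge of the filter, the lowest second-highest value of a tested region was 10.0 and the highest of an untested one 9.58.

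The lower region with the smallest p-value among those described lay 1310 bp inside Gm38231, a gene of GENCODE's TEC class (transcripts awaiting experimental evidence), at chr10:37130855-37131254. Its normalized values were 68.8 and 50.7 in M-EPC replicates 1 and 2, and 7.18 and 10.1 in F-EPC replicates 1 and 2. The log2 fold change was -2.65 ± 0.321 (SE; limma, adjusted p = 2.92e-05), and the region still differed with any 1 library left out. Neighbouring Gm38231 regions also fell. At chr10:37128705-37129104 the values were 55.0 and 53.7 in M-EPCs compared with 23.9 and 17.5 in F-EPCs. At chr10:37127937-37128336 they were 42.5 and 27.4 compared with 10.4 and 12.9. Within 100 kb of the first region 9 regions were tested, and all 9 had a negative fold change, 3 past the threshold. A region in intron 1 of Hdac2, which encodes a histone deacetylase, fell too. The 4 regions span 149 kb. The Hdac2 region had values of 33.8 and 41.6 in M-EPCs and 11.2 and 13.8 in F-EPCs (log2 fold change -1.52).

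Unc5a, a netrin receptor of axon guidance, had a lower promoter region in F-EPCs at chr13:55003203-55003830, 164 bp upstream of its transcription start site (TSS). The values were 45 and 33.5 in M-EPCs and 6.38 and 7.38 in F-EPCs. The region passed the filter through the M-EPC libraries alone, which fixed its direction, and its log2 fold change was -2.34 ± 0.348 (SE; limma, adjusted p = 0.000806). A second Unc5a region, 1297 bp inside the gene at chr13:55004778-55005177, fell from 36.3 and 25.3 to 14.4 and 7.38 (log2 fold change -1.47) and did not pass the threshold without M-EPC replicate 1 or without F-EPC replicate 2.

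Regions in introns were also among those with the smallest p-values. In intron 1 of Ube2d1, an E2 ubiquitin-conjugating enzyme, at chr10:71272002-71272401, M-EPC values of 20.01 and 31.4 compared with F-EPC values of 1.60 and 1.84, which are 2 reads in each F-EPC library. The log2 fold change was -3.26 ± 0.549 (SE). In intron 2 of St6gal1, a sialyltransferase, at chr16:23296724-23297123, values of 38.8 and 29.4 in M-EPCs compared with 7.18 and 6.45 in F-EPCs (log2 fold change -2.15). The largest negative fold change among the regions described was -4.19 ± 0.735 (SE), at chr13:10210973-10211372. The authors classed this region as an intron and assigned it to the antisense gene Gm26861. It lay 146 kb upstream of the nearest Gm26861 TSS, so it need not be an intron of that gene. Its values were 36.3 and 22.3 in M-EPCs and 1.60 and 0 in F-EPCs, from 2 and 0 reads. The Gm26861 region did not pass the threshold without M-EPC replicate 1, nor that of Ube2d1 without M-EPC replicate 2.

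The other lower regions named by p-value lay near a miRNA gene, in a promoter or between genes. The region 2877 bp upstream of the miRNA gene Gm25748 had 31.3 and 35.5 in M-EPCs compared with 7.98 and 2.77 in F-EPCs (log2 fold change -2.56). The promoter region of Gm12258 at chr11:58859393-58859792 had 92.5 and 91.2 compared with 43.1 and 32.3 (log2 fold change -1.28). Intergenic regions were assigned to Gm3646 (log2 fold change -2.68), 1700029N11Rik (-2.38), March10 (-1.92), Ccdc71l (-1.81) and Fam162b (-1.52). These lay 36.8 to 180 kb from the TSS of the gene named, so the gene is only an address. The call was lost without M-EPC replicate 1 at 1700029N11Rik, without F-EPC replicate 1 at Fam162b and without F-EPC replicate 2 at Gm12258. All 12 regions described so far by p-value, from Gm38231 to Gm12258, also differed with TMM factors from the tested regions, while the other Gm38231 regions, Hdac2 and the second Unc5a region did not.

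**Figure D2:**
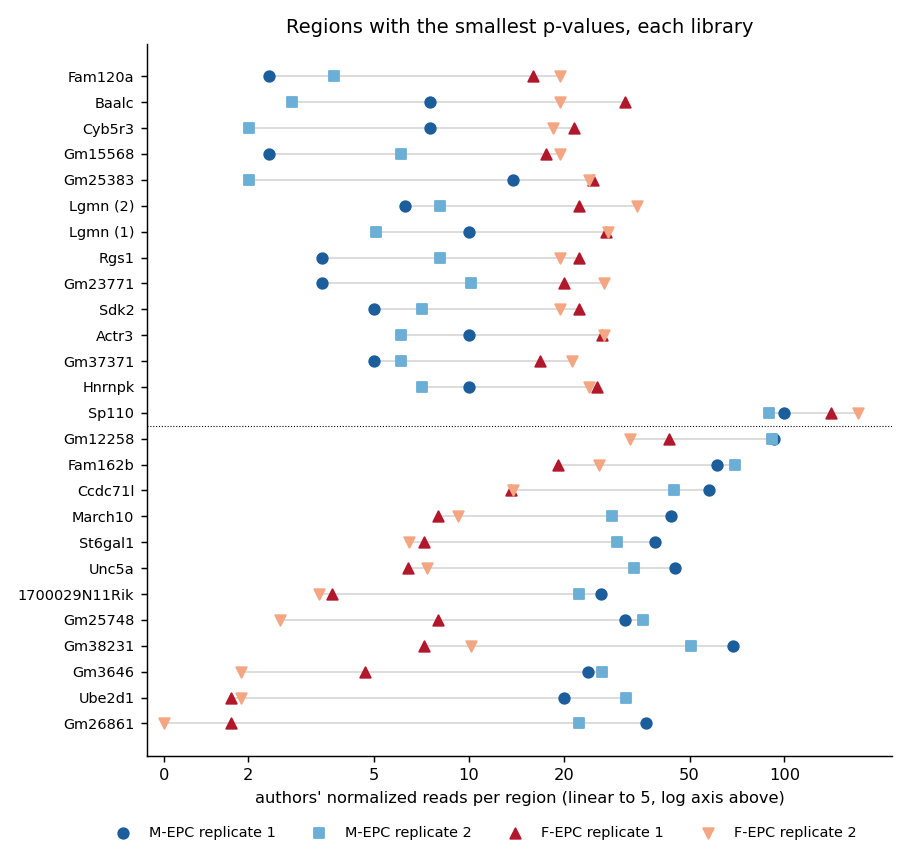
Normalized reads of each library (horizontal, linear to 5 and logarithmic above) in the regions with the smallest p-values, 14 higher in F-EPCs above the dotted line and 12 lower below it. Blue marks are M-EPC and red and orange marks F-EPC replicates. Lgmn (1) is the promoter region and Lgmn (2) the intergenic one. Regions were chosen for groups that do not overlap, and the Gm25383 replicates of M-EPC lie far apart.

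The lists of proinflammatory factors and of cytokine and chemokine receptors each held 1 lower region, of 12 and 29 tested, beside 1.62% of all tested regions. Ccl12, a chemokine that attracts monocytes, had a promoter region 183 bp upstream of its TSS at chr11:82101463-82101862. Its values were 25.0 and 19.3 in M-EPCs and 7.18 and 1.84 in F-EPCs, with a log2 fold change of -2.25 ± 0.488 (SE; limma, adjusted p = 0.0193). The region passed the filter through the M-EPC libraries alone, which fixed its direction. The size rested on F-EPC replicate 2, without which the fold change was -1.49 and did not pass the threshold. It also did not pass without M-EPC replicate 1 or with TMM factors from the tested regions (adjusted p = 0.0835). A region 4.21 kb further on had 15 and 14.2 compared with 4.79 and 4.61, and did not pass the threshold (log2 fold change -1.45, adjusted p = 0.10). Ccr7, a chemokine receptor that guides lymphocytes and dendritic cells, had an intergenic region 18.8 kb upstream with 27.5 and 21.3 in M-EPCs compared with 9.58 and 4.61 in F-EPCs (log2 fold change -1.71). The Ccr7 region also passed the filter through M-EPCs alone, and its call was lost without M-EPC replicate 1 (limma, adjusted p = 0.101), without F-EPC replicate 2 (0.144) and with TMM factors from the tested regions (0.0961).

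Several more genes of this kind were picked out after their values were seen. Socs1 and Socs3 encode inhibitors of JAK-STAT cytokine signalling, and both had a lower promoter region at the TSS. Socs1, at chr16:10785333-10785732, had 45 and 24.3 in M-EPCs and 10.4 and 10.1 in F-EPCs (log2 fold change -1.60). Socs3, at chr11:117969040-117969439, had 22.5 and 19.3 compared with 7.18 and 6.45 (log2 fold change -1.48). The promoter of Pias4, a SUMO ligase and inhibitor of activated STAT, had 21.3 and 19.3 compared with 7.98 and 3.69 (log2 fold change -1.71). Traf5, an adaptor of the tumour necrosis factor receptor family, had a promoter region with 28.8 and 18.2 compared with 7.18 and 8.30 (log2 fold change -1.46). In an intron of Irak4, a kinase of Toll-like and interleukin-1 receptor signalling, values of 21.3 and 18.2 compared with 6.38 and 5.53 (log2 fold change -1.58). None of these 5 regions differed with TMM factors from the tested regions. Without M-EPC replicate 1, none of them passed the threshold. Socs3, Traf5 and Irak4 also lost their call without either F-EPC replicate, and Pias4 without F-EPC replicate 2.

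By the list of proinflammatory factors, 1 of 12 tested regions was lower, that of Ccl12, compared with 1.62% of all tested regions, and 0 were higher. All 12 had a negative fold change, at Ccl12, Ccl11, Ccl28, Il4, Il20, Ifng, Mif, Tnfsf4 and Tnfsf13. Their median was -0.79 on the authors' scale, beside -0.19 for all tested regions, and -0.60 beside 0.00 with TMM factors from the tested regions. At Ifng, the gene of interferon gamma, the values were 13.8 and 24.3 in M-EPCs and 11.2 and 11.1 in F-EPCs. Their log2 fold change of -0.67 was not past the threshold.

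Of 25 tested regions of interferon-induced genes 1 was lower, compared with 1.62% of all tested regions. It lay in intron 4 of the pseudogene Ifi203-ps, with 17.5 and 20.3 in M-EPCs and 6.38 and 4.61 in F-EPCs (log2 fold change -1.62). The list's median was -0.76, and -0.57 with TMM factors from the tested regions. The list did not hold Sp110, an interferon-induced gene with a region higher in F-EPCs (log2 fold change 0.71). Regions at the start of Ifi213 (-0.95), Irf1 (-1.37) and Rsad2 (-1.23) had lower values in both F-EPC libraries and did not pass the threshold. Intergenic regions assigned to Ifi206 (0.03), Ifi208 (0.01) and Ifi214 (0.01) had fold changes close to 0. The Ifi203-ps region passed the threshold without F-EPC replicate 1, but not with any of the other 3 libraries left out or with TMM factors from the tested regions. Genes of this family are related copies, so some reads of 25 bases may be shared among them, although the study's methods removed reads of low mapping quality. Of 29 tested regions of cytokine and chemokine receptors 1 was lower, that of Ccr7, compared with 1.62% of all tested regions, and the median of -0.19 equalled that of all regions.

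Zinc finger genes held 11 of the 132 lower regions. These were 11 of 165 tested (6.67%), compared with 1.62% of all tested regions, and 0 were higher. The 11 regions were assigned to Zfp729a, Zfp369, Zfp825, Zfp85os, Zfp759, Zfp273, Zfp708, Zkscan3 and Zkscan8 on chromosome 13 and, with 2 regions, to Zfp873 on chromosome 10. Many of these genes encode KRAB repressors, which recruit H3K9 methylation to repeats, and H3K9me3 on their own clusters is well known. In intron 1 of Zfp729a, at chr13:67628330-67628729, values of 58.8 and 49.7 in M-EPCs compared with 20.8 and 21.2 in F-EPCs (log2 fold change -1.32 ± 0.274, SE). In a region annotated as the 3' untranslated region of Zfp369, at chr13:65297466-65297865, values of 161 and 105 compared with 64.6 and 64.5 (log2 fold change -1.003). In an intergenic region 30.3 kb from the TSS of Zfp825 values of 36.3 and 28.4 compared with 11.2 and 12 (log2 fold change -1.40). In an intergenic region 44.5 kb from that of Zfp873 they were 43.8 and 32.4 compared with 16 and 9.22 (-1.56).

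The rest of the zinc finger list moved less. Of its 165 regions 149 had a negative fold change, with a median of -0.55 and of -0.34 with TMM factors from the tested regions. Most of all tested regions were negative too, with medians of -0.19 and 0.00 on these scales. On chromosome 13, 78 of 83 were negative, with a median of -0.67. On chromosome 11, 13 of 19 were negative, with a median of -0.41. With those TMM factors 0 zinc finger regions differed. Zfp369 and Zfp825 kept their call only without M-EPC replicate 2, Zfp729a lost it without F-EPC replicate 1, and the Zfp873 region lost it without M-EPC replicate 1 or F-EPC replicate 2. Without M-EPC replicate 1, 2 were lower, and without M-EPC replicate 2, 26. Without F-EPC replicates 1 and 2 the counts were 4 and 3. These clusters are made of related copies, and some reads may be shared between them despite the mapping-quality filter in the study's methods. Their signal was also high, with a median value of 20.5 compared with 12.8 over all tested regions, and the part of signal level in the count was not tested.

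Of the 14 regions higher in F-EPCs, 6 also differed with TMM factors from the tested regions, at Baalc, Lgmn (2 regions), Actr3, Hnrnpk and Sp110. The region assigned to Baalc, a gene named for its expression in brain and acute leukaemia, was classed as an intron by the authors. It lay at chr15:38908329-38908728, 24.6 kb upstream of the nearest Baalc TSS, so it need not be an intron of Baalc. Values of 7.50 and 3.04 in M-EPCs compared with 31.1 and 19.4 in F-EPCs. The log2 fold change was 2.13 ± 0.431 (SE; limma, adjusted p = 0.0157). Lgmn encodes the lysosomal protease legumain. Its promoter region, 2745 bp upstream of the start of one of its transcripts at chr12:102426315-102426714, had 10.0 and 5.07 in M-EPCs and 27.1 and 27.7 in F-EPCs (log2 fold change 1.80). The intergenic region 4054 bp upstream of another transcript start, at chr12:102443668-102444067, had 6.25 and 8.11 compared with 22.3 and 34.1 (log2 fold change 1.82). Between these regions lay an intronic region with a log2 fold change of 0.70 and a core promoter region with 0.27, and neither passed the threshold.

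**Figure D3:**
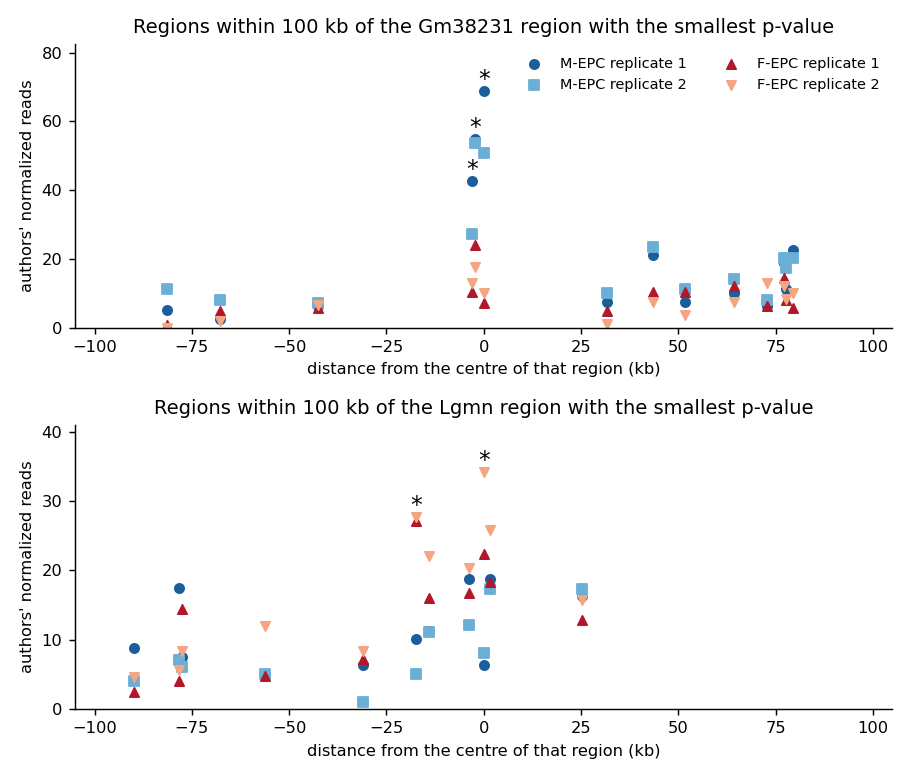
Normalized reads of the 4 libraries (vertical) in all regions within 100 kb of the Gm38231 region (upper panel) and of the intergenic Lgmn region (lower panel) with the smallest p-value, against the distance from its centre in kb. Asterisks mark regions that differed, 3 in the upper and 2 in the lower panel. At the marked regions blue M-EPC marks lie above the red and orange F-EPC marks in the upper panel and below them in the lower one.

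Downstream of Actr3, a subunit of the Arp2/3 actin nucleation complex, at chr1:125390451-125390850, values of 10.0 and 6.08 in M-EPCs compared with 26.3 and 26.7 in F-EPCs (log2 fold change 1.64). An intergenic region 55.8 kb from Hnrnpk, an RNA-binding protein, had 10.0 and 7.10 compared with 25.5 and 24.0 (log2 fold change 1.45). Sp110 encodes an interferon-induced nuclear body protein. Its region 3035 bp upstream of the TSS, at chr1:85592027-85592426, had the highest values of the 14, with 100 and 89.2 in M-EPCs and 140 and 171 in F-EPCs (log2 fold change 0.71 ± 0.179, SE). Sp110 belongs to a cluster of copied genes, so its reads may come from several copies.

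The only region of the 14 that passed the threshold with each library left out in turn was the Lgmn promoter region. Baalc did not pass without F-EPC replicate 1, the other Lgmn region without F-EPC replicate 2, and Actr3, Hnrnpk and Sp110 without either F-EPC replicate.

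The remaining higher regions were weak in M-EPCs, and none of them passed with TMM factors from the tested regions. In intron 1 of Fam120a values of 2.50 and 4.05 compared with 16 and 19.4 in F-EPCs (log2 fold change 2.14). At Cyb5r3, cytochrome b5 reductase, a promoter region had 7.50 and 2.03 compared with 21.5 and 18.4 (log2 fold change 2.04, and 1.30 without M-EPC replicate 2). In intron 1 of Sdk2, a cell adhesion protein, values of 5.002 and 7.10 compared with 22.3 and 19.4 (log2 fold change 1.65). Near Rgs1, a regulator of G protein signalling, they were 3.75 and 8.11 compared with 22.3 and 19.4 (1.73). Intergenic regions assigned to Gm15568 (1.96), Gm37371 (1.61) and Gm23771 (1.73, and 1.11 without M-EPC replicate 1) were also higher. These lay 17.3 to 98.7 kb from the TSS of the gene named, so the gene is only an address. In an intergenic region 209 kb from the TSS of Gm25383 the M-EPC values were 13.8 and 2.03. The log2 fold change there of 1.92 became 3.07 without M-EPC replicate 1 and 0.78 without M-EPC replicate 2.

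By the authors' annotation the lower regions were spread over the genome. Within 1 kb of a TSS (core promoter) 29 of 1959 tested regions were lower and 0 higher. Between 1 and 3 kb (promoter flank) 15 of 466 were lower, the class with the highest share at 3.22%, and 3 were higher. In introns 30 of 1366 were lower and 3 higher, in exons and untranslated regions 3 of 226 and 0, and in distal intergenic sequence 54 of 4021 and 7. Downstream of genes 1 of 101 was lower and 1 higher. The share of lower regions in core promoters was thus 1.48%, close to the 1.62% of all regions.

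The median fold change also differed between classes. It was -0.42 in core promoters, -0.22 in promoter flanks, -0.21 in introns and -0.01 in distal intergenic regions. With TMM factors from the tested regions these medians were -0.22, -0.02, -0.01 and 0.19, so the sign in distal regions depends on the scaling while the order of core promoters and distal regions was the same. Of the reads in the 26999 regions, core promoters held 23.7% and 20.1% in M-EPC replicates 1 and 2, compared with 16.7% and 18.8% in F-EPCs. The means were 21.9% ± 2.52 and 17.8% ± 1.47 (SD, n = 2), a difference of -4.12 percentage points. Distal intergenic regions held 46.5% and 49.4% in M-EPCs and 54.3% and 52.9% in F-EPCs, a difference of 5.64 percentage points. In both cases the groups did not overlap. The two-sided exact permutation test gave p = 0.333 for each, the smallest p that 2 libraries against 2 allow, so these differences could not pass a threshold.

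CpG content went with the change. CpG-rich regions (GC of at least 50% and an observed to expected CpG ratio of at least 0.6) had a median log2 fold change of -0.44 in 1559 tested regions, compared with -0.10 in the 6580 others. The difference was -0.33, and -0.18 to -0.46 with 1 library left out. Within core promoters it was -0.46 in 1396 CpG-rich regions and -0.28 in 563 others. Despite the lower median, 15 CpG-rich regions were lower (0.962%) and 0 higher, a smaller share than that of the 117 lower regions among the others (1.78%). The promoters of Socs3 with 46 CpGs, Ercc6l2 with 49, Pmm1 with 41 and Traf5 with 40 were among the lower ones.

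The change also went with signal level. In the 1628 tested regions with the lowest mean values the median log2 fold change was 0.09 and 1 region was lower (0.0614%). In the 1628 with the highest, whose mean values began at 20.6, the median was -0.36, 64 regions were lower (3.93%) and 1 was higher. These shares are to be read beside the 1.62% of all tested regions that were lower. How far precision at each level of signal shaped these counts was not tested. The strongest 1% of the 26999 regions held 10.9% and 9.95% of the reads in M-EPC replicates 1 and 2, and 9.43% and 9.65% in F-EPC replicates 1 and 2. For the strongest 10% the shares were 38.6% and 34.6% compared with 30.7% and 32.5%. Reads were thus most concentrated in M-EPC replicate 1 and least in F-EPC replicate 1, with the other libraries between them.

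**Figure D4:**
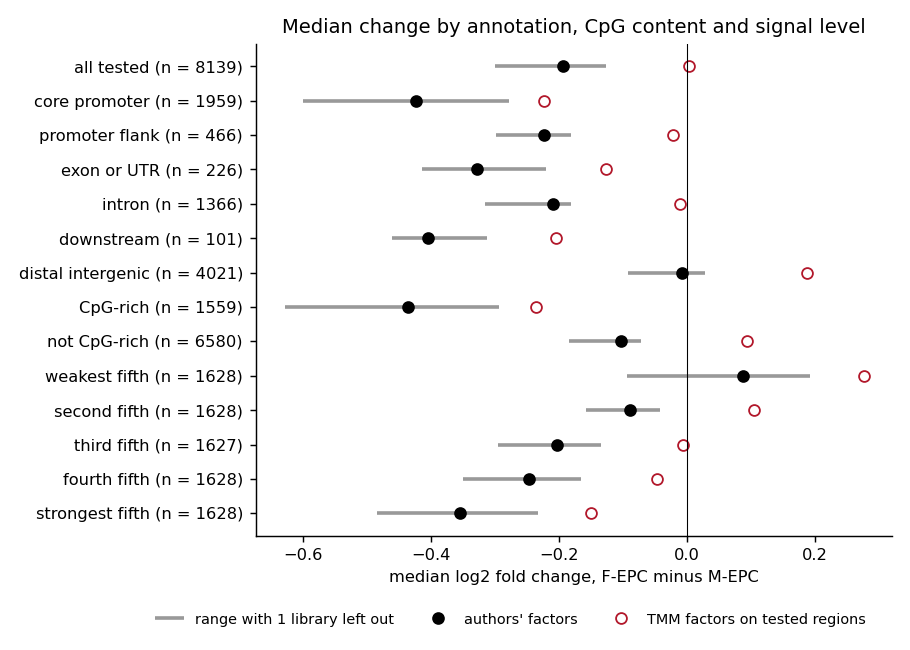
Median log2 fold change of F-EPC minus M-EPC (horizontal) for all tested regions and by annotation class, CpG content and level of signal (vertical, with the number of regions). Black points use the authors' factors, grey bars span the medians with 1 library left out and red circles use TMM factors from the tested regions. Core promoters and CpG-rich regions lie lowest on both scales, and the medians fall from the weakest to the strongest regions.

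Regions almost wholly of repeat sequence (over 75% of their bases masked) had a median log2 fold change of 0.02 in 878 regions, compared with -0.30 in 1678 regions with no masked base. By chromosome, the share of lower regions ran from 0.682% on chromosome 15, with 6 of 880, to 2.28% on chromosome 13, with 26 of 1142. Chromosome 1 had 30 of 1536 lower and 5 higher, and chromosome 14 had 7 of 704 lower and 0 higher.

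Some differing regions lay close together, but how often tested regions lie this close was not tested. Joining those within 200 kb of each other gave 122 loci, of which 18 held 2 or more and together 42 regions. At Cdh23, which encodes a cadherin of inner ear hair cells, 2 promoter regions fell, with 76.3 and 64.9 in M-EPCs compared with 28.7 and 26.7 at chr10:60303464-60303863 (log2 fold change -1.31) and 106 and 102 compared with 57.5 and 59.0 at chr10:60305113-60305512 (-0.83). All 9 tested regions within 100 kb of Cdh23's first region had a negative fold change. In introns of Syt2, a synaptotagmin of vesicle release, values fell from 21.3 and 21.3 to 4.79 and 4.61 and from 38.8 and 44.6 to 22.3 and 13.8. At Zfp729a, Zfp85os and Zfp273, which lie within 186 kb, 3 of 19 tested regions were lower, compared with 1.62% of all tested regions. Of the 19, 17 had a negative fold change. These loci were picked out after their values were seen.

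Other gene lists showed few or no differing regions. The counts are to be read beside the 1.62% of all tested regions that were lower. Of 14 tested regions of axon guidance genes 2 were lower, both of Unc5a, with a median of -0.62. Of 18 regions of serpins 1 was lower, 18.3 kb from Serpina3i, with 67.5 and 57.8 in M-EPCs and 26.3 and 24.9 in F-EPCs (log2 fold change -1.25), and the median was -0.19. The Serpina3i region did not pass without either F-EPC replicate or with TMM factors from the tested regions. Among predicted and Rik genes 51 of 3128 were lower (1.63%) and 4 higher, with a median of 0.03. No region (0) differed among angiogenic factors and receptors (3 tested, median -0.84), endothelial progenitor markers (1 tested), markers of other marrow cells (4, -0.63), developmental transcription factors (67, 0.27), Wnt, Bmp and Fgf signalling (18, 0.15), olfactory and vomeronasal receptors (68, 0.23), imprinted genes (15, -0.22), keratins and keratin-associated proteins (5, -0.04), histone genes (16, -0.03), germline and meiosis genes (27, -0.22), H3K9 methylation and heterochromatin (22, -0.56), ion channels (69, 0.08) or solute carriers (73, -0.40). These 0 counts are from limma. Of the 388 regions in these 13 lists, 66 had an unadjusted limma p under 0.05, edgeR called 1 and DESeq2 0. Over all 8139 tested regions the same counts were 1852, 106 and 4.

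**Figure D5:**
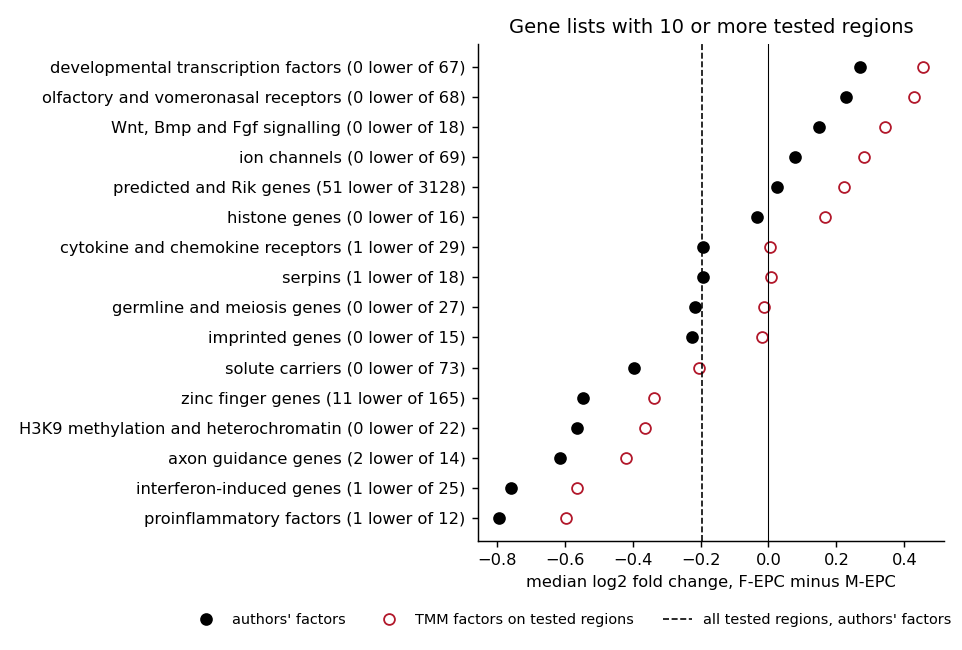
Median log2 fold change of F-EPC minus M-EPC (horizontal) of the gene lists with 10 or more tested regions (vertical, with the number lower in F-EPCs of those tested). Black points use the authors' factors, red circles TMM factors from the tested regions, and the dashed line is the median of all tested regions, -0.19. Proinflammatory factors, interferon-induced and axon guidance genes lie lowest, and developmental transcription factors highest.

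Single genes of these lists varied. At Pecam1, the gene of CD31, an intronic region had 17.5 and 11.2 in M-EPCs and 7.18 and 6.45 in F-EPCs (log2 fold change -0.94, limma adjusted p = 0.201). At Lyz2, a lysozyme of macrophages and granulocytes, values of 23.8 and 14.2 compared with 5.59 and 8.30 (-1.31, adjusted p = 0.0869). The promoter of Hif1a, the oxygen-sensing transcription factor, had 22.5 and 25.3 compared with 10.4 and 15.7 (-0.85, adjusted p = 0.16). Meg3, a maternally expressed imprinted RNA, had values of 17.5 and 15.2 compared with 28.7 and 26.7 (0.73, adjusted p = 0.18). In each of these 4 regions the values of the groups did not overlap, as in 53.8% of all tested regions, and none passed the threshold.

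Ccl3 and Angpt1, whose H3K9me3 the study examined, were not among the tested regions. From genome browser views, the paper reported the mark at the Ccl3 TSS in F-EPCs and OVX-EPCs but not in M-EPCs. At the Angpt1 TSS it reported more of the mark in M-EPCs. The values below are reads per deposited region, which is another measure. The Ccl3 promoter region at chr11:83649398-83649797 had 18.8 and 8.11 in M-EPCs and 9.58 and 9.22 in F-EPCs, so the groups overlapped, and in the fit without the filter the log2 fold change was -0.37 ± 0.430 (SE). All 4 Angpt1 regions were distal intergenic and weak, with values of 0 to 10.1 in a library.

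Of the 1628 tested regions with the highest mean values 64 were lower (3.93%, beside 1.62% of all tested regions), but the 5 strongest regions did not differ. A Gm21738 promoter region at chr14:19418566-19418965 had 611 and 547 in M-EPCs and 526 and 527 in F-EPCs (log2 fold change -0.14 ± 0.0995, SE; limma, adjusted p = 0.41). The other Gm21738 region had 461 and 481 compared with 488 and 463 (0.01), and that of Gm11668 568 and 500 compared with 513 and 575 (0.03). Regions of Sfi1 had 354 and 320 compared with 340 and 320 (-0.03), and 330 and 353 compared with 286 and 286 (-0.26, adjusted p = 0.21). With TMM factors from the tested regions 4 of these 5 fold changes were positive, 0.08 to 0.24, and the last was -0.04. On both scales 4 of the 5 were above the median of all tested regions.

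OVX-EPC libraries held 209015 and 223313 reads in the same regions. The comparison of OVX-EPCs uses the same M-EPC libraries, so values are given side by side as CPM, reads scaled to the same total in these regions. At the Gm38231 region M-EPCs had 275 and 212, F-EPCs had 31.2 and 43.6 and OVX-EPCs 57.4 and 62.7. At the Unc5a promoter they had 180 and 140, 27.7 and 31.7, and 47.8 and 13.4. At the Ccl12 promoter they had 99.9 and 80.7, 31.2 and 7.93, and 33.5 and 26.9. In these 3 regions both OVX-EPC values lay below both M-EPC values.

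Other regions had OVX-EPC values nearer to those of M-EPCs or between the groups. At Gm3646 M-EPCs had 94.9 and 110, F-EPCs 20.8 and 7.93 and OVX-EPCs 90.9 and 67.2. In the Zfp729a intron they had 235 and 208, 90.2 and 91.1, and 182 and 161. At the Baalc region M-EPCs had 29.96 and 12.7, F-EPCs 135 and 83.2 and OVX-EPCs 71.8 and 80.6. At the Lgmn promoter region they had 39.9 and 21.2, 118 and 119, and 43.1 and 76.1. At Sp110 they had 399 and 374, 610 and 737, and 655 and 708, so OVX-EPC values lay within the range of F-EPC values there.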

How the data were processed

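H3K9me3 CUT&Tag signal was taken from the deposited table of M-EPCs and F-EPCs, with OVX-EPC values from the table of M-EPCs and OVX-EPCs. The methods of the study name Bowtie2, Picard, MACS and HOMER, while the submitters' processing notes list BWA and MACS2, and mm10 coordinates were used. The authors deposited signal per peak region, that is reads scaled by a factor per library. Dividing by this factor gave whole reads for 100% of values (tolerance 1e-06). The authors' columns of fold change, p and adjusted p were not used, nor was the table of F-EPCs and OVX-EPCs. The deposited F-EPC values stop partway through the genome, at different places in the 2 replicates, and regions past the first stop were left out.

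Regions with a value of at least 10 in at least 2 of 4 libraries were tested with limma 3.58.1 (R 4.3.3; mean-variance trend) on log2(value + 1), which understates the fold change of weak regions. The Benjamini-Hochberg threshold was 0.05 over all tested regions. Shares of reads were compared with the exact permutation test over libraries. edgeR 4.0.16 and DESeq2 1.42.0 were run on the recovered reads as alternatives, and the fit was tested on simulated data. Gene names are the authors' annotation of each region, distances to TSSs are from GENCODE, and sequences, GC and repeats are from GRCm38.p6. Named regions are the 15 with the smallest p in each direction whose groups do not overlap, those of Ccl3 and Angpt1, the 5 strongest, and up to 4 called regions of each gene list. The members and lists were chosen with earlier results of these data known. Of the regions named by this rule, 3 are not reported here.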

Additional observations from a re-analysis of the deposited data

How the results depend on the processing

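The 146 differing regions became 242 with a pseudocount of 5, 231 without the filter on low values, 323 with the trend on GC content removed, and 5684 when all deposited regions, including those where F-EPC libraries hold no reads, were tested. They became 24 with TMM factors from the tested regions, an alternative added after seeing the data, and 4 with DESeq2. At an unadjusted p under 0.05 DESeq2 gave 356 of the 8139 regions, compared with 1852 in the main limma fit. With 1 library left out the count ran from 95 to 647. The replicate numbers are shared by the groups in the labels, but same-numbered libraries did not deviate together (correlation -0.05), so they share only a number. With the replicate block the count was 166 and with the block and the GC trend removed it was 342. The shares of reads were -4.12 and 5.64 percentage points with the replicate block as without it. The core promoter difference was -1.65 in regions of at least 30 in at least 2 libraries. The distal intergenic difference was 3.997 in regions of at least 10 and 0.83 in those of at least 30. With 1 library left out these ran from -5.91 to -2.34 and from 4.15 to 7.13. The difference between CpG-rich and other regions was -0.11 in regions of at least 30, and ran from -0.46 to -0.18 with 1 library left out. The cause of these moves was not tested. None of the 35 named called regions changed direction under any alternative run, but they were chosen because they were called. Their groups do not overlap, so leaving out 1 library could not reverse them, and the filter fixed the direction of some. Leaving out 1 library leaves that group with 1 sample, which is assumed to vary like the other group. Depth limits single regions to changes of several reads.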
